A study of Mus musculus with 119 samples.

Results

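Ccdc3, Smoc2, Gcnt2 and Sidt1 are 4 of the 55291 genes counted in 119 RNA-seq libraries from 5 brain regions of mice given delta-9-tetrahydrocannabinol (THC) or vehicle in adolescence. The 4 genes were chosen by their rise with THC in the female Amy libraries FTL_333 to FTL_344, where they ranked 2, 3, 4 and 5 of 17003 genes by p-value, so their values in those 12 libraries are given as a description with no test. What follows are their levels in every region and group, their THC response in the 9 region and sex pairs that did not choose them, and their relation to markers of nerve cell types in the male Amy libraries FTL_345 to FTL_356.

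The regions were the amygdala (Amy), prefrontal cortex (PFC), nucleus accumbens (NAc), dorsal striatum (DMS) and ventral tegmental area (VTA). Female and male mice received THC at 10 mg/kg by intraperitoneal injection once a day from postnatal day 28 to 48, 21 injections in all, and controls received the vehicle of ethanol, Tween and saline on the same days. The labels give the strain as C57BL/6J and the age at collection as 11 weeks, while the study's methods name C57BL/6NCrl mice and place collection a week later, and the DMS is dorsolateral striatum in the labels and dorsal medial striatum in the methods. There were 20 groups of 6 libraries, except the VTA of vehicle-treated males with 5, and each library was a punch of 1 region of 1 mouse taken after behavioural tests. The labels do not tie the libraries of a mouse together, and a punch is bulk tissue, so fewer cells of a type and less RNA per cell cannot be told apart.

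The cortex-like nuclei of the amygdala (lateral, basolateral and cortical) hold glutamatergic projection neurons related to those of the neocortex, whereas the central nucleus is built mainly of GABAergic neurons related to striatal medium spiny neurons, and the medial nucleus shares markers with the hypothalamus. THC acts on the neuronal cannabinoid receptor, which sits mostly on presynaptic terminals of such circuits. The 4 genes differ in what they are known to do. Ccdc3 encodes a secreted coiled-coil protein described in blood vessels and fat. Smoc2 encodes a calcium-binding matricellular protein of the SPARC family, and Gcnt2 the I-branching enzyme, which adds N-acetylglucosamine side branches to poly-N-acetyllactosamine chains. Sidt1 encodes a multispan membrane protein related to the nematode channel for double-stranded RNA.

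By the GENCODE annotation of GRCm38 (the mm10 assembly), Ccdc3 (ENSMUSG00000026676) lies at chr2:5137776-5230878 on the plus strand, Smoc2 (ENSMUSG00000023886) at chr17:14279506-14404790 on the plus strand, Gcnt2 (ENSMUSG00000021360) at chr13:40859754-40960892 on the plus strand and Sidt1 (ENSMUSG00000022696) at chr16:44240180-44333196 on the minus strand. All 4 are protein-coding, and each has exons that overlap an RNA gene of the opposite strand (Gm26776 for Ccdc3, 4930474M22Rik for Smoc2, Gm31683 and A730081D07Rik for Gcnt2, Gm26732 for Sidt1). The library kit kept the strand, but whether the counting used it is not given in the sources used here, so a gene and its antisense partner may not be fully apart in the counts.

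Start-site windows of 300 bases, 250 before and 50 after the start, were read from RefSeq (GRCm38.p6) for 3 of the 4 genes: 1 for Ccdc3, 3 for Gcnt2 and 1 for Sidt1. Those of Ccdc3 and Sidt1, the genes that followed the cortex-like markers in the male Amy, and the downstream start of Gcnt2 are shown 5′ to 3′ on the gene's strand, with letters in capitals where a searched motif lies on either strand. The motifs, picked after the data were seen, were the GC box GGGCGG, the neuronal E-box CAGATG, the cyclic AMP response element half-site TGACG and the TATA box TATAAA.
Ccdc3, chr2:5137526-5137825, plus strand: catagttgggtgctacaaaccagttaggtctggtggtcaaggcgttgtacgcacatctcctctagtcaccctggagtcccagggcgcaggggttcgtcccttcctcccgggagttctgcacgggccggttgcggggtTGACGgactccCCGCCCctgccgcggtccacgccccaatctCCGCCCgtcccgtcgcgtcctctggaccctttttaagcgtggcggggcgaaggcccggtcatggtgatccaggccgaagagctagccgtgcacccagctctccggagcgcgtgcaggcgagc
Sidt1, chr16:44332789-44333088, minus strand: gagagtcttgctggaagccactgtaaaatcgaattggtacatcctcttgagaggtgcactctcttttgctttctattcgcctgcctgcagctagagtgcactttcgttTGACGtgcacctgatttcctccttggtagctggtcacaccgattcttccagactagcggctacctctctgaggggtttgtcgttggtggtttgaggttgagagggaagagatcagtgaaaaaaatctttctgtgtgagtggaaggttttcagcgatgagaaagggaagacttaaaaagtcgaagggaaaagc
Gcnt2 downstream start, chr13:40917384-40917683, plus strand: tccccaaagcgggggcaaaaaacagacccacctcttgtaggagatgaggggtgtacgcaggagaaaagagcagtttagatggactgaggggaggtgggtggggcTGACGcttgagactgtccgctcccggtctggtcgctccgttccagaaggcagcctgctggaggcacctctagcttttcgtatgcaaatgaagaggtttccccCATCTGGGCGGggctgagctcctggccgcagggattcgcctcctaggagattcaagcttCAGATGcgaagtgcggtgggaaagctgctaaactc

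The Ccdc3 window held 2 GC boxes and 1 TGACG, and 66.3% of its bases were G or C, against a median of 52.7% over 32851 windows. The Sidt1 window held 1 TGACG and had 47.3% G and C. The downstream Gcnt2 window held 1 GC box, 2 E-boxes and 1 TGACG, with the GC box and the nearer E-box sharing a base, whereas the other Gcnt2 windows held none of the motifs. Of all windows, 35.7% held the GC box, 17.2% the E-box, 20.8% TGACG and 13.6% the TATA box. These matches describe letters only, and the counts per gene do not separate the 3 Gcnt2 starts.

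Library depth, the sum of expected counts, ran from 3090998 to 77042133 with a median of 22092612. In the female Amy the median was 26933795 with vehicle and 44472649 with THC, and in the male Amy 28362508 with vehicle and 12766415 with THC, where no library passed 14939490. Regional markers sat where the labels place them, with summed cortical projection neuron markers of 4806 to 5547 CPM (counts scaled to a common library size) in the PFC and dopaminergic markers of 879 to 3289 CPM in the VTA against at most 17.3 CPM elsewhere. Sex-linked genes matched the label in 117 of 119 libraries and went against it in library FTL_344, labelled female Amy THC, and library FTL_356, labelled male Amy THC. Both were kept under their labels, and most of the fold changes and correlations named for the Amy are also given without them. In the DMS, vehicle library FTL_285 of a female held 857 CPM of cortical markers against 325.3 to 430 CPM in the other 23 DMS libraries. Levels below are CPM after TMM normalization over all libraries, and they are compared between groups and not between genes, since they are not per length.

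In the female Amy libraries that chose the genes, Ccdc3 lay at 6.50 to 9.86 CPM (median 7.98) with vehicle and 16 to 21.1 CPM (median 17.9) with THC, a log2 fold change (log2FC) of 1.15 ± 0.10 (SE). Smoc2 lay at 0.955 to 1.44 CPM (median 1.34) with vehicle and 2.59 to 4.66 CPM (median 3.54) with THC, a log2FC of 1.5 ± 0.16. All 6 THC libraries were above all 6 vehicle libraries for both genes. Gcnt2 lay at 11 to 16.3 CPM (median 14.1) with vehicle and 22.1 to 25.5 CPM (median 22.7) with THC, a log2FC of 0.71 ± 0.09. Sidt1 lay at 34.9 to 43.4 CPM (median 39.0) with vehicle and 49.1 to 57.4 CPM (median 55.2) with THC, a log2FC of 0.46 ± 0.06, and for these genes too the groups did not overlap. Groups apart from each other are likely for genes picked by p-value in these same libraries, and the share of all genes without overlap was not counted. In this comparison 1.57% of the genes tested were called, with 186 higher and 81 lower with THC. A call meant an FDR under 0.05 and an absolute log2FC of at least 0.4. Without library FTL_344 the log2FC was 1.10 for Ccdc3, 1.52 for Smoc2, 0.72 for Gcnt2 and 0.45 for Sidt1.

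Marker levels differed between the same libraries. The 14 markers of cortex-like projection neurons summed to 1138 to 1709 CPM with vehicle and 1678 to 2168 CPM with THC, and 13 of the 14 had a higher mean with THC. All 10 markers of medium spiny neurons were also higher with THC (sums of 521 to 1137 CPM and 909 to 1505 CPM), and all 10 markers of the hypothalamus and medial amygdala were lower (427 to 616 CPM and 289.2 to 470 CPM). Choroid plexus markers were uneven in both groups (17.3 to 1144 CPM and 17.5 to 3554 CPM), with the highest sums in THC libraries FTL_343 and FTL_344 (3554 and 2223 CPM). Without FTL_344 the THC sums were 1678 to 2168 CPM for cortex-like, 1070 to 1505 CPM for medium spiny and 289.2 to 470 CPM for hypothalamic and medial markers. Of the other lists, the number of markers with a higher mean with THC was 5 of 7 for thalamus, 4 of 5 for claustrum, 4 of 6 for interneurons, 1 of 6 for dopaminergic neurons, 1 of 6 for astrocytes, 0 of 6 for oligodendrocytes, 2 of 6 for microglia, 3 of 6 for endothelium and 1 of 6 for fibroblasts. With the cortex-like marker score as a covariate, the log2FC of the fit was 0.84 for Ccdc3, 1.28 for Smoc2, 0.78 for Gcnt2 and 0.27 for Sidt1. Cortex-like markers themselves differed between these groups, so the fit cannot tell tissue make-up apart from THC. The part of tissue make-up in the rise of the 4 genes was not tested.

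In the male Amy, which did not enter the choice, none of the 4 genes was called between THC and vehicle. Ccdc3 lay at 5.66 to 17.0 CPM (median 8.44) with vehicle and 9.29 to 18 CPM (median 10.9) with THC. The groups overlapped, with 1 THC library above all vehicle libraries, and the log2FC was 0.29 ± 0.24 (FDR 0.9999, edgeR). Smoc2 lay at 1.08 to 2.89 CPM (median 1.48) with vehicle and 0.732 to 2.45 CPM (median 1.49) with THC (log2FC -0.07 ± 0.30). Gcnt2 lay at 11.2 to 22.1 CPM (median 17.5) with vehicle and 12.2 to 27.6 CPM (median 15) with THC (log2FC 0.03 ± 0.20). Sidt1 lay at 31.4 to 47.4 CPM (median 43.8) with vehicle and 22.5 to 48.6 CPM (median 40.4) with THC (log2FC -0.11 ± 0.15). For these 3 genes too the groups overlapped and the FDR was 0.9999. By edgeR 0 of 15321 genes were called (0%) and 1.84% had an unadjusted p under 0.05, and DESeq2 called 0 genes. The standard errors were 0.15 to 0.30 here, against 0.06 to 0.16 in the female Amy. THC library FTL_352 had the highest Gcnt2 level and the lowest Smoc2 and Sidt1 levels of the male Amy, and without it the log2FC was 0.09 for Smoc2, -0.17 for Gcnt2 and 0.00 for Sidt1. Without library FTL_356, whose sex-linked genes went against its label, the log2FC was 0.15 for Ccdc3, -0.21 for Smoc2 and -0.15 for Sidt1. Cortex-like markers summed to 823 to 1630 CPM (median 1475) with vehicle and 838 to 2556 CPM (median 1438) with THC. Without FTL_356 the THC sums reached 1730 CPM (median 1373). By mean, 10 of 14 cortex-like, 6 of 10 hypothalamic and medial and 6 of 10 medium spiny markers were higher with THC. These means include FTL_356 and FTL_352, the latter with 3069 CPM of medium spiny markers. The median sums of these lists were lower with THC, for hypothalamic and medial markers 494 against 530 CPM and for medium spiny markers 752 against 976 CPM. Of the other lists in the male Amy, 0 of 7 thalamus, 0 of 5 claustrum and 0 of 6 oligodendrocyte markers had a higher mean with THC. The number was 6 of 6 for fibroblasts, 5 of 5 for choroid plexus and 5 of 6 for interneurons and for dopaminergic neurons. It was 4 of 6 for astrocytes and 2 of 6 for microglia and for endothelium. A test of whether the THC response differed between the sexes in the Amy was not made, because the female response chose the genes.

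**Figure D1:**
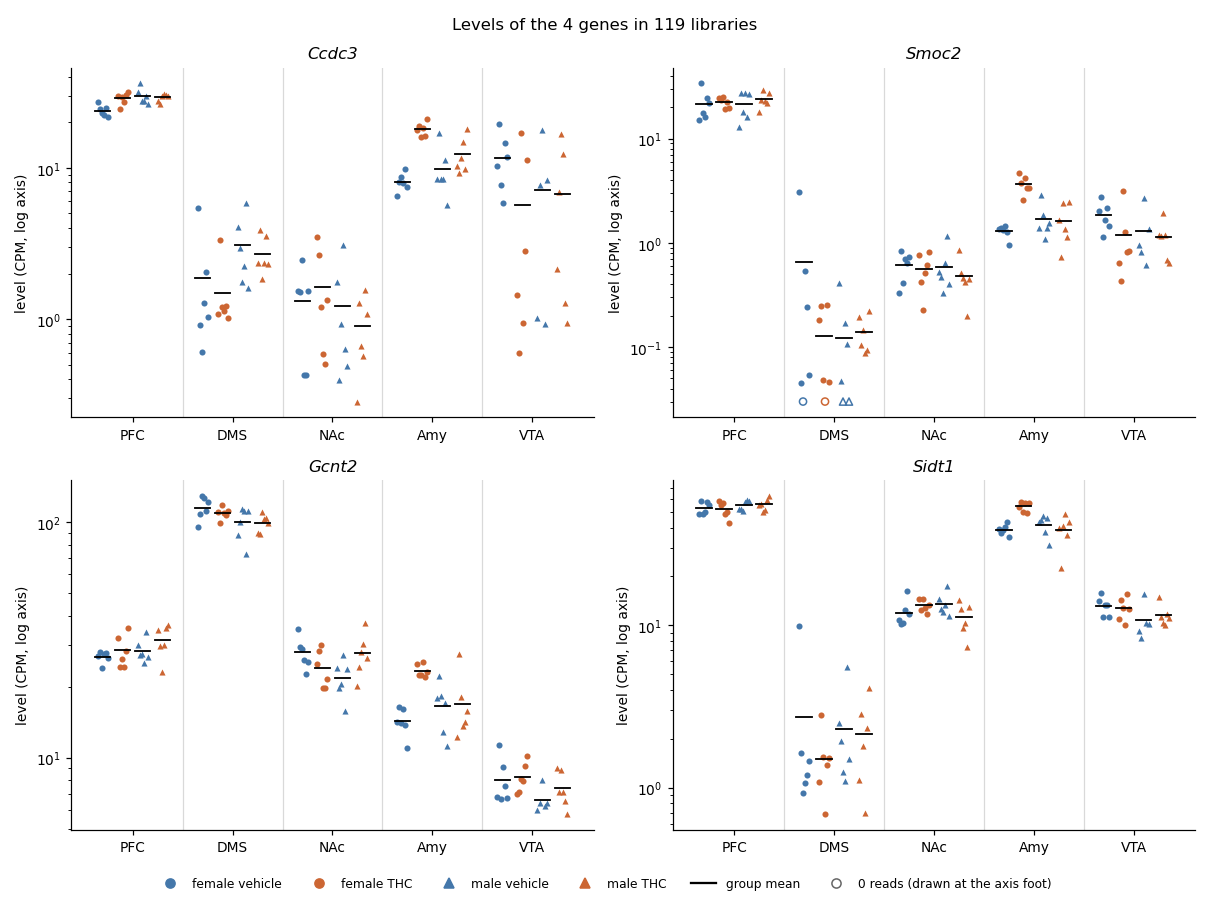
Level of each gene in CPM (log axis) in every library by region, with circles for females, triangles for males, blue for vehicle, orange for THC, bars for group means and open marks for libraries with 0 reads. The female Amy THC points, of the comparison that chose the genes, sit above all female Amy vehicle points for each gene. Gcnt2 is highest in the DMS and the other 3 genes in the PFC, and Ccdc3 in the VTA lies in a lower and an upper range.

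Outside the Amy, the question was whether THC moved the 4 genes in another region. In the 8 region and sex pairs of the PFC, DMS, NAc and VTA, none was called. With the male Amy, 33 of 36 gene and comparison pairs passed the filter on low counts, 0 were called, 2 had an unadjusted p under 0.05, and 16 log2FC lay above 0 and 17 below. The exceptions to the filter were Smoc2 in the DMS of both sexes and in the male NAc, where it lay at or under 1.17 CPM except in DMS library FTL_285. Hardly any gene was called in these comparisons, with 0% in 7 of the 8 by edgeR and 0.0127% (2 genes) in the female DMS. The share with an unadjusted p under 0.05 was 1.93% to 16.7% over the 8, and DESeq2 called 0 to 22 genes, none of the 4 among them.

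The lowest p was that of Ccdc3 in the female PFC, where the level was 21.7 to 27.2 CPM with vehicle and 24.6 to 31.9 CPM with THC. Of the 6 THC libraries 5 were above all vehicle libraries, and the log2FC of 0.27 ± 0.07 had an unadjusted p of 0.0005 and an FDR of 0.66 (edgeR). In the male PFC the log2FC of Ccdc3 was -0.04 ± 0.07. The other was Gcnt2 in the male NAc, at 15.7 to 27.3 CPM with vehicle and 20.1 to 37.3 CPM with THC (log2FC 0.34 ± 0.15, unadjusted p = 0.044, FDR 0.29), with 3 THC libraries above all vehicle libraries. In the female NAc its log2FC was -0.22 ± 0.13, and 3 THC libraries were below all vehicle libraries. Sidt1 in the male NAc had a log2FC of -0.28 ± 0.15 with an FDR of 0.36.

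The widest errors were in regions where a gene was low or uneven. In the VTA of females Ccdc3 lay at 5.87 to 19.5 CPM (median 11.0) with vehicle and 0.596 to 17.0 CPM (median 2.12) with THC, and 4 THC libraries were below all vehicle libraries. The log2FC was -0.95 ± 0.73 (FDR 0.70), against 0.12 ± 1.00 in males. Sidt1 had a log2FC of -0.88 ± 0.65 in the female DMS. Without library FTL_285 the female DMS value was 0.25 ± 0.28 for Sidt1 and 0.34 ± 0.36 for Ccdc3 in place of -0.35 ± 0.53, so both turned from below to above 0. In the PFC and DMS Gcnt2 was measured more closely, with log2FC between -0.07 and 0.15 and errors of 0.06 to 0.11. In the female DMS without FTL_285 it was -0.12 ± 0.05 (unadjusted p = 0.022, FDR 0.39). With both sexes in 1 fit and sex as a covariate, none of the 4 genes was called in the PFC, DMS, NAc or VTA, and neither was any other gene (0% in each). The number of genes with an unadjusted p under 0.05 by edgeR was 791 for PFC, 811 for DMS, 1711 for NAc and 1687 for VTA, and DESeq2 called 0 in each. The median log2FC of the members tested was between -0.35 and 0.15 over the 9 region and sex pairs, against -0.005 to 0.005 for all genes. The -0.35 was that of the female DMS, where it was 0.25 without library FTL_285.

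**Figure D2:**
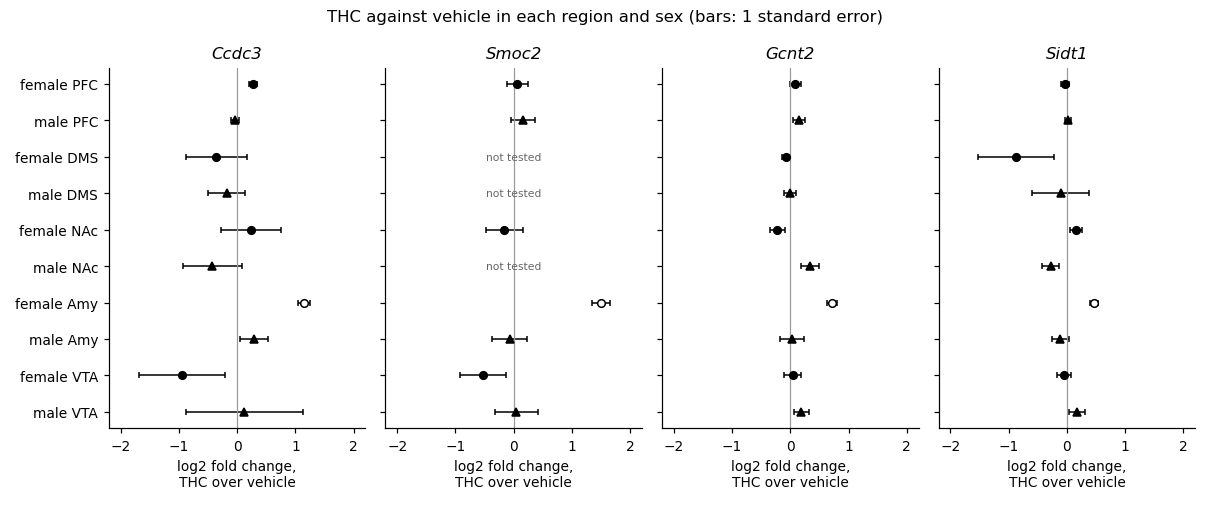
Log2 fold change of THC over vehicle for each gene in the 10 region and sex pairs, with circles for females, triangles for males, bars of 1 standard error and open circles for the female Amy comparison that chose the genes. Outside the female Amy the values run from -0.95 for Ccdc3 in the female VTA to 0.34 for Gcnt2 in the male NAc.

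Levels were then compared between regions. Among vehicle libraries Ccdc3 was highest in the PFC (26.9 ± 4.20 CPM, SD, n = 12), followed by the VTA (9.58 ± 6.08, n = 11) and Amy (8.98 ± 2.9, n = 12), and lowest in the DMS (2.48 ± 1.75) and NAc (1.26 ± 0.88). Smoc2 stood at 21.4 ± 6.44 CPM in the PFC and far lower elsewhere, with VTA 1.60 ± 0.73, Amy 1.49 ± 0.49, NAc 0.60 ± 0.24 and DMS 0.39 ± 0.86 CPM, and in the last it rested on 0 to 74 reads over all DMS libraries and 4 of the 24 had none. Without library FTL_285 the DMS mean was 0.15 ± 0.18 CPM (n = 11) for Smoc2, and 1.83 ± 1.31 CPM for Sidt1. Sidt1 was high in the PFC (54.0 ± 3.98 CPM) and Amy (40.3 ± 4.71), lower in the NAc (12.8 ± 2.29) and VTA (12.1 ± 2.52) and lowest in the DMS (2.51 ± 2.65). Gcnt2 ran another way, with 107 ± 16.1 CPM in the DMS and then PFC 27.6 ± 2.57, NAc 24.9 ± 5.15, Amy 15.4 ± 3.21 and VTA 7.39 ± 1.60 CPM.

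All vehicle libraries were fitted together with sex as a covariate and the 10 pairs of regions compared. Ccdc3, Gcnt2 and Sidt1 were called in 9 pairs each and Smoc2 in 8. Differences between regions are common in these libraries, and 49.3% of the 17476 genes tested were called between PFC and DMS, 45.2% between PFC and NAc, 37.4% between PFC and Amy, 55% between PFC and VTA, 30.8% between DMS and NAc, 43% between DMS and Amy, 57.4% between DMS and VTA, 24.7% between NAc and Amy, 52% between NAc and VTA and 43.4% between Amy and VTA. The neighbours whose difference was not called were VTA and Amy for Ccdc3 (log2FC of Amy over VTA -0.03 ± 0.30, FDR 0.93) and for Smoc2 (0.07 ± 0.33, FDR 0.86), DMS and NAc for Smoc2 (-0.48 ± 0.46, FDR 0.36), PFC and NAc for Gcnt2 (0.14 ± 0.10, FDR 0.21) and NAc and VTA for Sidt1 (0.12 ± 0.19, FDR 0.55). The largest difference was that of Smoc2 between PFC and DMS, a log2FC of 5.66 ± 0.35, and for Gcnt2 it was DMS over VTA, 3.91 ± 0.12. For Sidt1 it was PFC over DMS, 4.38 ± 0.21, and for Ccdc3 PFC over NAc, 4.32 ± 0.34.

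Of these calls, a few rested on some of the libraries. Without DMS library FTL_285, Smoc2 was lower in the DMS than in the NAc (log2FC -1.93, FDR 6.28e-05), its log2FC of PFC over DMS was 7.09 and the call of Ccdc3 between DMS and NAc was lost (0.73, FDR 0.10). The female Amy vehicle libraries entered the choice of the genes, so the pairs were also fitted on male vehicle libraries alone. There the call of Gcnt2 between NAc and Amy was lost at a log2FC of 0.39, as were those of Ccdc3 between DMS and VTA (-0.88, FDR 0.13) and DMS and NAc (1.29, FDR 0.083) and of Smoc2 between NAc and VTA (-0.76, FDR 0.11), while Smoc2 between DMS and NAc (-2.18, FDR 0.0038) and Sidt1 between NAc and VTA (0.46, FDR 0.043) were called. In males alone Amy and VTA still had no call for Ccdc3 and Smoc2. The log2FC of Amy over VTA was 0.83 for Ccdc3 (FDR 0.13, edgeR) and 0.78 for Smoc2 (FDR 0.051, edgeR). The counts of PFC and DMS came in a table apart from those of NAc, Amy and VTA, and a difference between tables cannot be told apart from one between their regions.

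Between the sexes, vehicle libraries of the other 4 regions (PFC, DMS, NAc and VTA, in that order below) showed no call among the 4 genes, with 0.113%, 0.511%, 0.0871% and 0.0495% of all genes called. Ccdc3 in the PFC came nearest, at 21.7 to 27.2 CPM in females and 26.3 to 36.1 CPM in males (log2FC of male over female 0.33 ± 0.07, FDR 0.0495, edgeR), past the FDR threshold and short of the fold threshold. Gcnt2 in the NAc was lower in males (log2FC -0.36 ± 0.13, unadjusted p = 0.014, FDR 0.21). In the VTA all 4 genes had a lower mean in males, with log2FC from -0.32 ± 0.15 for Gcnt2 to -0.97 ± 0.71 for Ccdc3 and FDR of 0.55 to 0.76. The median log2FC was -0.59 for the 4 genes and -0.0017 for all genes. The unadjusted p was 0.018 for Sidt1 and 0.030 for Smoc2 (edgeR), and 8.18% of all genes had one under 0.05. The 4 genes were measured in the same punches and are not independent of each other. Ccdc3 in the DMS had a log2FC of 0.70 ± 0.53 with library FTL_285 and 1.39 ± 0.39 (FDR 0.072) without it.

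In the 12 male Amy libraries, the levels of the genes were set against the scores of 3 marker lists. Each score was the mean of the standardized log2 CPM of the genes of its list. The tests used 100000 permutations and adjustment over the 12 relations. Other genes were not tested, so the share of all genes that follow a score as closely is not known. Sidt1 followed the cortex-like score most closely (Pearson r = 0.86, adjusted permutation p = 0.00096, Spearman rho = 0.91, adjusted permutation p = 0.0020). Library FTL_352, with 838 CPM of cortex-like markers, had 22.5 CPM of Sidt1, library FTL_350, with 823 CPM, had 31.4 CPM, and the other 10 libraries had 36.0 to 48.6 CPM. Without library FTL_356 r was 0.93 (adjusted permutation p = 0.00012). Without libraries FTL_350 and FTL_352, the farthest from the median score, r was 0.68 (adjusted permutation p = 0.11). Within the 6 vehicle libraries it was 0.97 and within the 6 THC libraries 0.89 (exact permutation test, adjusted p = 0.033 for each).

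Ccdc3 also followed the cortex-like score (r = 0.76, adjusted permutation p = 0.013, rho = 0.72, adjusted permutation p = 0.034). Library FTL_356, which went against its sex label, had the highest score and the highest Ccdc3 level, 18 CPM, and without it r was 0.67 (adjusted permutation p = 0.069). Vehicle library FTL_346 had nearly as much Ccdc3 (17.0 CPM) at a score of 0.41, against 1.4 in FTL_356. Without libraries FTL_350 and FTL_352, r was 0.73 (adjusted permutation p = 0.11), and it was 0.75 within vehicle (adjusted p = 0.16) and 0.92 within THC (adjusted p = 0.033) by exact permutation. For Smoc2 r was 0.62 (adjusted permutation p = 0.073) and rho 0.57 (adjusted permutation p = 0.14), and without FTL_356 r was 0.54 (adjusted permutation p = 0.20). With the other 2 lists, r of Ccdc3, Smoc2 and Sidt1 over all 12 libraries lay between -0.53 and 0.26 and no relation passed the threshold. Within vehicle, Ccdc3 did pass it with the hypothalamic and medial score (r = -0.92, adjusted p = 0.033) and the medium spiny score (r = 0.90, adjusted p = 0.0375) by exact permutation, while within THC r was 0.15 and -0.53 (adjusted p = 0.76 and 0.36, exact).

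The relation of Gcnt2 with the cortex-like score did not pass the threshold over all 12 libraries (r = -0.04, adjusted permutation p = 0.92) or without FTL_356 (r = -0.02, adjusted permutation p = 0.94). Within vehicle r was 0.88 (adjusted p = 0.033) and within THC -0.62 (adjusted p = 0.30) by exact permutation. Its level rose with the medium spiny score (r = 0.86, adjusted permutation p = 0.0013, rho = 0.78, adjusted permutation p = 0.014) and fell with the hypothalamic and medial score (r = -0.88, adjusted permutation p = 0.00096, rho = -0.80, adjusted permutation p = 0.014). Libraries FTL_352 and FTL_346 had the most Gcnt2 (27.6 and 22.1 CPM) and the highest medium spiny sums of the Amy (3069 and 1979 CPM), and without them r was 0.58 and -0.71 (adjusted permutation p = 0.19 and 0.11). Both relations thus fell short of the threshold without these 2 libraries. Without FTL_356 r was 0.89 and -0.88 (adjusted permutation p = 0.0018 for each). Within vehicle r was 0.78 and -0.79 (adjusted p = 0.11 for each) and within THC 0.97 and -0.96 (adjusted p = 0.033 for each) by exact permutation. Among the 5 THC libraries other than FTL_356, given with no test, r was 0.86 for Ccdc3 and 0.98 for Sidt1 with the cortex-like score, and 0.99 and -0.96 for Gcnt2 with the medium spiny and the hypothalamic and medial scores. Across regions, Gcnt2 was highest in the DMS, where medium spiny markers also were highest (6917 to 11593 CPM), but it was about as high in the PFC (220 to 652 CPM of these markers) as in the NAc (3030 to 6276 CPM). Ccdc3, Smoc2 and Sidt1 were highest in the PFC, where the cortex-like markers were highest. For Ccdc3 and Smoc2 the difference between VTA (247 to 436 CPM of these markers) and Amy (823 to 2556 CPM) was not called. Among male vehicle libraries alone the log2FC of Amy over VTA was 0.83 for Ccdc3 and 0.78 for Smoc2, also not called.

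The same relations in the 12 female Amy libraries are given within treatment and with no test, since these libraries chose the genes. With the cortex-like score, r within vehicle and within THC was 0.62 and 0.77 for Ccdc3, 0.71 and 0.81 for Sidt1, -0.13 and 0.75 for Smoc2 and -0.29 and 0.41 for Gcnt2. With the medium spiny score Gcnt2 had 0.75 and 0.78. In each case n was 6. Without FTL_344 (n = 5) the values within THC were 0.90 for Ccdc3, 0.79 for Sidt1, 0.85 for Smoc2 and 0.46 for Gcnt2 with the cortex-like score, and 0.98 for Gcnt2 with the medium spiny score.

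**Figure D3:**
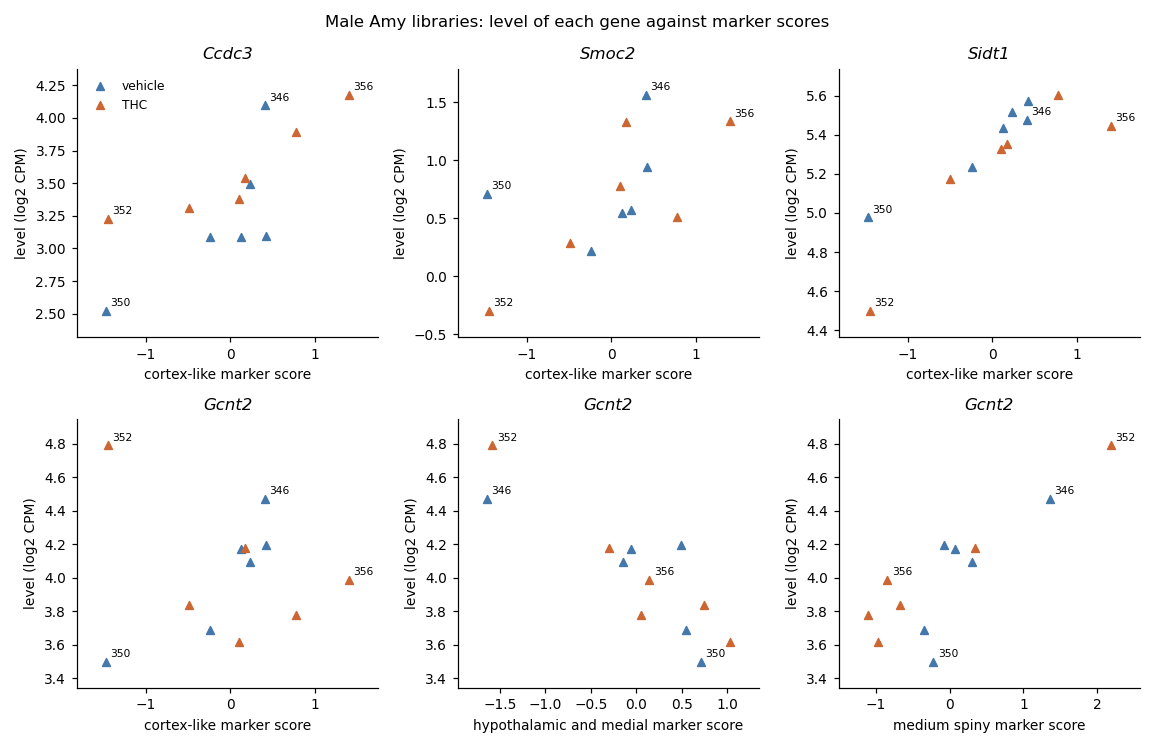
Level (log2 CPM) against marker score (mean standardized log2 CPM) in the 12 male Amy libraries, blue for vehicle and orange for THC, with libraries FTL_346, FTL_350, FTL_352 and FTL_356 numbered. Sidt1 and Ccdc3 rise with the cortex-like score (r of 0.86 and 0.76), and Gcnt2 rises with the medium spiny score (0.86) and falls with the hypothalamic and medial score (-0.88), with FTL_346 and FTL_352 at the ends.

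In the VTA the level of Ccdc3 was spread widely. It was at 0.596 to 2.81 CPM in 9 libraries and at 5.87 to 19.5 CPM in the other 14, with none between. These ranges were read from the data and are not groups of the study. The lower range held 7 THC and 2 vehicle libraries, 4 of them female, and the upper 5 THC and 9 vehicle libraries, 8 of them female. Markers of meningeal and perivascular fibroblasts, which line the brain surface and vessels, summed to 37.5 to 199 CPM in the lower range and 103 to 470 CPM in the upper. Astrocyte markers summed to 1942 to 2208 CPM and 2481 to 3410 CPM. The astrocyte list includes Gfap, which alone ran from 105 to 1230 CPM over the VTA libraries and was the gene most like Ccdc3 there. Sums without Gfap are not given, and the share of all genes that differ in this way between the ranges was not counted.

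Within the upper range the level of Ccdc3 rose with the fibroblast markers (n = 14, r = 0.84, adjusted permutation p = 0.0011, rho = 0.85, adjusted permutation p = 0.0019), and r was 0.86 without the 2 farthest libraries. Within the lower range r was also 0.84 (n = 9, exact permutation test, adjusted p = 0.010), but rho was 0.58 (adjusted p = 0.13, exact) and r was 0.32 without the 2 farthest libraries, so r was high only with those libraries included. With the astrocyte markers r was 0.58 in the upper range (adjusted permutation p = 0.039), rho was 0.56 (adjusted permutation p = 0.059) and r was 0.36 without the 2 farthest libraries. In the lower range r was 0.81 (adjusted p = 0.018, exact), rho was 0.90 (adjusted p = 0.0061, exact) and r was 0.33 without the 2 farthest. In both ranges r with the astrocyte markers was thus lower without those libraries. Leaving out the farthest libraries also narrows the spread of marker sums, which can lower r, so it does not settle whether a relation rests on them. With the dopaminergic markers r was -0.58 in the upper range (adjusted permutation p = 0.039), and -0.65 without the 2 farthest libraries, and -0.21 in the lower (adjusted p = 0.56, exact). These 6 relations were chosen after the data were seen, and the part of the punch in the Ccdc3 level of the VTA was not tested.

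**Figure D4:**
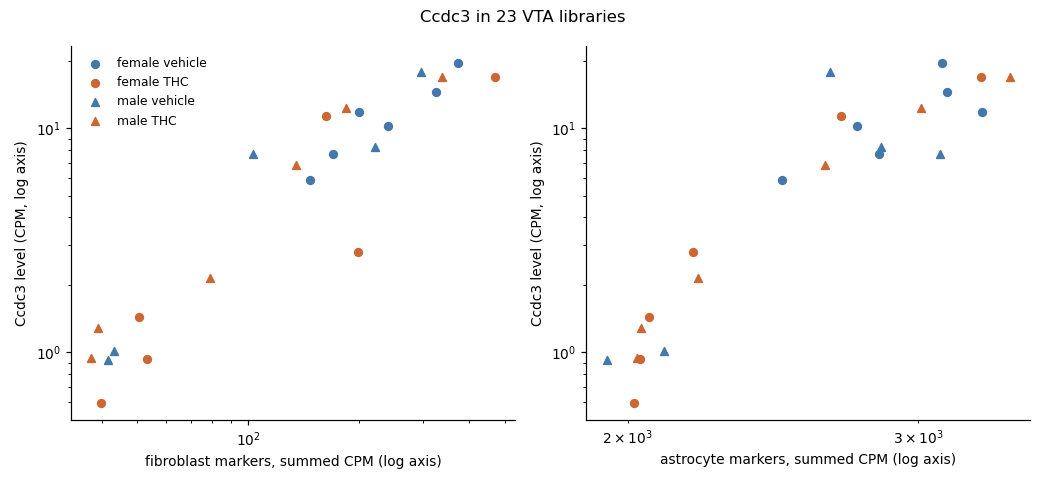
Ccdc3 level (CPM) against the summed CPM of fibroblast markers (left) and astrocyte markers (right) in 23 VTA libraries, all axes logarithmic. The 9 libraries at or below 2.81 CPM of Ccdc3 hold the lowest astrocyte sums (1942 to 2208 CPM), all below those of the 14 libraries at or above 5.87 CPM. The astrocyte sums include Gfap, which alone ran from 105 to 1230 CPM over these libraries, and sums without it are not given.

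The relatives of the 4 genes were followed as fixed lists. None of 108 relative and comparison pairs outside the female Amy was called with THC, and 10 had an unadjusted p under 0.05 (edgeR), 7 of 63 in the SPARC family, 3 of 36 among the chain-extending and branching enzymes and 0 of 9 for Sidt2. Of all genes, 1.84% to 16.7% had such a p in these comparisons, so no excess is read from these counts. In the female Amy, given as a description, 1 of 12 was called (against 1.57% of all genes), the matricellular gene Sparc, which was lower with THC (log2FC -0.45 ± 0.08), opposite to its relative Smoc2. The other 11 lay between -0.29 and 0.33. Between regions, Sidt2 was called in 0 of 10 pairs where Sidt1 was called in 9, and Smoc1 was called in 9 where Smoc2 was called in 8. Of the other relatives, Spock3 was called in 10, Sparc in 9, Sparcl1 and Gcnt4 in 8 and Spock1 and B3gnt2 in 7. Spock2, Gcnt1 and B4galt1 were called in 4 and Fstl1 in 2. All genes were called in 24.7% to 57.4% per pair, so counts near 4 of 10 are close to that background. Gcnt3 and Gcnt7 did not pass the filter.

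The genes most like each member were taken by Pearson r of log2 CPM, as a description. Over the 12 male Amy libraries, which share the punch and the depth of each library, Ccdc3 was most like Chtf8 (0.92), Kctd4 (0.90) and Kcnk4 (0.90), Smoc2 was most like Csnk1a1 (0.83), Thada (0.82) and Slc25a44 (0.81), Gcnt2 was most like Atp2b1 (0.96), Smpd3 (0.96) and Grin2c (0.95) and Sidt1 was most like Rap2a (0.94), Grp (0.93) and Zbtb46 (0.92). Over the means of the 10 vehicle region and sex groups, Ccdc3 was most like Adamts14 (0.99), Plcd3 (0.97) and Wls (0.96), Smoc2 was most like Brd9 (0.991), Ephb3 (0.989) and Rras2 (0.987), Gcnt2 was most like Cap1 (0.996), Zfp180 (0.995) and Ubtf (0.994) and Sidt1 was most like Gabra3 (0.996), Gm37811 (0.996) and Sema4a (0.991). No gene was among the 3 most alike in both sets, and none of the 4 genes was among the 3 most like another.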

How the data were processed

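RNA from 1-mm to 2-mm punches was poly(A)-selected, made into stranded libraries and sequenced as paired reads by the authors. Per the submitters' notes, reads were trimmed with cutadapt 2.9, aligned to mm10 with STAR 2.7.3a and quantified with RSEM 1.3.1. The deposited values are the expected counts per gene that the authors took from RSEM, without normalization, in 2 tables of 55291 gene symbols. About 5.00% of values in the NAc, Amy and VTA table and 4.75% in the other were not whole, and all were rounded.

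Each comparison used edgeR 4.0.16 in R 4.3.3 (filterByExpr, TMM, robust quasi-likelihood F test), with p-values adjusted over all genes tested by the Benjamini-Hochberg method, and a call needed an FDR under 0.05 and an absolute log2FC of at least 0.4. The SE is the absolute log2FC over the square root of F. THC was compared with vehicle on the 2 groups of a region and sex. CPM used TMM factors over the 119 libraries (18932 genes past the filter), and log2 CPM a prior count of 2. The fits were tested on simulated data. Depth limits low genes most. No 2 libraries of a group agreed within sampling noise (lowest chi-square per gene 2.87). P-values of the THC and sex comparisons measure the spread between mice of a group as the labels give them. The region fits took libraries as independent, although a mouse gave several regions. Permutation p-values of the correlations come from shuffling libraries, across both treatments unless a value is given within treatment.

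The 4 genes and all lists were chosen with earlier results of these data known. The lists of cell type markers, beside those named above, covered thalamus, claustrum, interneurons, oligodendrocytes, microglia and endothelium. Named genes are the 4 members, their listed relatives (values for those called) and the 3 most alike genes by r; marker genes are given as lists. Alternatives were DESeq2 1.42.0, its size factors in place of TMM, tests on unfiltered genes, a joint fit of a region's groups, libraries left out, a marker covariate and other scores. Leaving out libraries FTL_285, FTL_344 or FTL_356 where not planned, the male-only region fits and the VTA ranges were added after seeing the data.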

Additional observations from a re-analysis of the deposited data

Results flagged for a closer look

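In 12 of 80 gene and group sets, a library stood apart from the others of its group by Dixon's ratio. With independent, normally spread values chance alone does this in about 1 in 20 groups. Levels in CPM need not be spread so, and some libraries recur among the 12, so no excess over chance is read from the count. 4 of the 12 came from DMS vehicle libraries. Library FTL_285 of a female held 5.40 CPM of Ccdc3, 3.05 CPM of Smoc2 and 9.94 CPM of Sidt1, where the nearest of its group held 2.06, 0.537 and 1.63 CPM, and its cortical markers summed to 857 CPM against 325.3 to 430 CPM in the other 23 DMS libraries. Its Gcnt2 level, 94.6 CPM, was the lowest of its group without being set apart by the ratio. Library FTL_301 of a male held 5.54 CPM of Sidt1, its cortical markers were the lowest of the DMS (325.3 CPM) and its medium spiny markers also (6917 CPM). In female DMS THC library FTL_292, Ccdc3 was at 3.33 CPM against 1.22 CPM in the nearest.

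In the VTA, male vehicle library FTL_371 held 8.06 CPM of Gcnt2 and 15.5 CPM of Sidt1, resting on 27 and 52 reads in the shallowest of all libraries. Male THC library FTL_374 held 14.8 CPM of Sidt1. Female THC library FTL_365 held 3.13 CPM of Smoc2 and the highest fibroblast marker sum of the VTA, 470 CPM. In the NAc, female vehicle library FTL_313 held 16.3 CPM of Sidt1, and male vehicle library FTL_325 held 1.17 CPM of Smoc2 on 22 reads. In the female Amy, vehicle library FTL_338 was low in Smoc2 at 0.955 CPM against 1.28 CPM in the nearest, on 34 reads. The causes were not tested.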

How the results depend on the processing

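The number of the 4 genes called stayed at 0 for THC in the 9 region and sex pairs and both sexes, and for sex, under all 80 alternatives, among them DESeq2, other size factors, no filter and, for the Amy and the male VTA, single libraries left out. The number of region pairs called stayed within 1.5 times for each gene, with 7 for Ccdc3 and 10 for Sidt1 among males alone and 8 to 9 pairs for Ccdc3 and for Smoc2 and 9 for Gcnt2 and Sidt1 when libraries were left out. With THC libraries in place of vehicle, Smoc2 was called lower in the DMS than in the NAc (-1.84) and the call of Ccdc3 between them was lost (0.75, and 0.92 with no filter). Amy pairs of that fit hold the female Amy THC libraries that chose the genes, so nothing is read from them. In the male Amy, leaving out each library in turn gave log2FC of 0.15 to 0.53 for Ccdc3, -0.23 to 0.19 for Smoc2, -0.17 to 0.13 for Gcnt2 and -0.19 to 0.0032 for Sidt1, with no call. In the female Amy the log2FC ran from 1.08 to 1.2 for Ccdc3, 1.41 to 1.57 for Smoc2, 0.65 to 0.75 for Gcnt2 and 0.44 to 0.49 for Sidt1. Of the 84 alternative values of the 12 correlations, 58 kept sign and side of the threshold and 16 changed sign. With cortex-like markers, Ccdc3 lost its call at r = 0.67 without library FTL_356, 0.73 without the 2 farthest libraries and 0.75 within vehicle, Sidt1 at 0.68 without the 2 farthest, and Smoc2 gained one at 0.66 with the summed score. Gcnt2 lost its calls with the other 2 lists without the 2 farthest libraries and within vehicle. Gcnt2 changed sign with that list at 0.26 (rho), 0.22 (without the 2 farthest), 0.88 (within vehicle) and 0.011 (summed score). With the hypothalamic and medial list, the changes of sign were 0.15 for Ccdc3 and 0.43 for Smoc2 within THC, and -0.27 (rho), -0.54 (without the 2 farthest) and -0.47 (within vehicle) for Sidt1. With the medium spiny list they were 0.13 (without FTL_356), 0.90 (within vehicle) and 0.052 (summed score) for Ccdc3, 0.077 (rho), 0.14 (without the 2 farthest) and 0.85 (within vehicle) for Smoc2 and 0.46 (within vehicle) for Sidt1. Smaller sets of libraries enter several of these, and other causes were not tested. No paired analysis was possible because the labels number each library once. Depth limits Smoc2 most, with 0 to 74 reads in the DMS and 6 to 29 in the NAc.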

Other observations

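Over the 23 VTA libraries the genes whose log2 CPM was most like that of Ccdc3 were Gfap, the filament gene of astrocytes, Nbl1, a secreted inhibitor of bone morphogenetic proteins, and C4b, a complement gene. Gfap, which is also in the list of astrocyte markers, ran from 105 to 1230 CPM over these libraries. Nbl1 ran from 10.6 to 63.9 CPM and C4b from 16.8 to 92.1 CPM. No r is given because the level of Ccdc3 falls into separate ranges. Smoc2 was most like Tapbp (r = 0.88), Nid1 (0.87), a basement membrane gene, and Adgra2 (0.87), a receptor of brain endothelium. These genes were looked up after the data were seen, and all share the same punches and depths.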
